A study of Homo sapiens with 6 samples.

Results

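The genes described here encode voltage-gated and related cation channels, and their poly(A) 3′-seq peaks were examined in IMR-32 cells, a human neuroblastoma line. Members were chosen by symbol alone: protein-coding genes shorter than 1 Mb whose names begin with KCNA to KCNH or KCNJ to KCNV, with SCN and a number, or with CACNA, CACNB or CACNG. This gave 132 of 19962 protein-coding genes of that length, and the choice used no measured value. A peak was given to a gene when its summit lay in the gene body or up to 4 kb past its 3′ end. The 132 genes held 1668 of the 199600 peaks that the whole list has on 24 chromosomes, and 2 of these summits lay in both SCN2A and SCN3A, which overlap.

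The study made 6 libraries: 2 from cells in the solvent DMSO, 2 from cells exposed for 2 h to 400 nM THZ531, and 2 from cells exposed to this dose for 6 h. The compound binds covalently to CDK12 and CDK13, kinases that act on transcribing RNA polymerase, and no genetic change of the line is given in the labels. Per the methods, peaks were called once, on the merged reads of all samples, which are taken here to be these 6 libraries. Neither strand nor any value by library is in the list, so no DMSO library could be set against a THZ531 library, no value below has a replicate error, and no test was made.

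Voltage-gated channels open when the membrane depolarizes. Sodium channels (SCN genes) carry the upstroke of the action potential, potassium channels (most KCN genes) repolarize the cell and set its resting potential, and calcium channels (CACN genes) let in the calcium that triggers transmitter release and gene expression. The pore is built from large alpha subunits, which in the sodium and calcium channels are single long proteins, and smaller auxiliary subunits tune its gating and transport. Many of the genes are long and mostly intron, and a transcript cleaved and polyadenylated within an intron would lack the exons after it, and with them part of the pore.

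The 3′ edge of a peak marks the candidate cleavage site, because reads of this library kit start where the transcript meets its poly(A) tail. The first set below shows such sites at peaks that were classed as transcript-end peaks by their summits. It gives 30 bases at 3 tall transcript-end peaks that lay in no other gene and had an AATAAA, chosen after their values were seen. AATAAA, the canonical poly(A) signal, is in capitals, and each sequence is GRCh38, 5′ to 3′ on the strand of the gene.
KCNQ5, chr6:73199099-73199128, plus strand: tctatAATAAAgggatttgctaaacaatgt
KCNH2, chr7:150944959-150944988, minus strand: tgaatAATAAAtaattatcctgaggagact
KCNMA1, chr10:77636200-77636229, minus strand: tgcagAATAAAaaagaaagaactggaaaaa

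At KCNQ5 and KCNMA1 the signal began 26 and 27 bp before the 3′ edge, and at KCNH2 it began 44 bp before it. The peaks were 39 reads high at KCNQ5, 34 at KCNMA1 and 35 at KCNH2, where reads means the pileup of extended reads over the summit. The KCNQ5 peak was 465 bp wide, with its summit at position 73198756. The annotated gene ends at 73198853, so the KCNQ5 sequence above lies past that end and away from the summit. The KCNMA1 site is an annotated end of short transcripts and lay only 2.11 kb into a gene of 769 kb.

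The second set shows intronic sites, 100 bases before and 50 bases after the 3′ edge. It holds 2 tall intronic peaks with AATAAA and without an A-rich stretch, each in no other gene and also chosen after their values were seen, with every AATAAA in capitals.
CACNA2D1, chr7:82437136-82437285, minus strand: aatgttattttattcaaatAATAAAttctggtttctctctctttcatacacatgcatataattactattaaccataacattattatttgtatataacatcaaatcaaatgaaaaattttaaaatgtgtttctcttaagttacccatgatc
KCNJ8, chr12:21773032-21773181, minus strand: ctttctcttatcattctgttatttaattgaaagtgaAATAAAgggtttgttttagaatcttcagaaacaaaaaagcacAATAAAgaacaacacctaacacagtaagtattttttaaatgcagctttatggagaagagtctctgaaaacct

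The peaks held 42 reads in CACNA2D1 and 37 in KCNJ8. In CACNA2D1 the only AATAAA began 81 bp before the edge, whereas KCNJ8 had one at 64 bp and another at 22 bp.

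The third window shows an intronic peak in no other gene with at least 18 A in 25 bases within the 50 bases after the edge, the A-richest 25 bases in capitals. It was chosen as an example after its values were seen and is not the tallest of its kind.
SCN3B, chr11:123649579-123649728, minus strand: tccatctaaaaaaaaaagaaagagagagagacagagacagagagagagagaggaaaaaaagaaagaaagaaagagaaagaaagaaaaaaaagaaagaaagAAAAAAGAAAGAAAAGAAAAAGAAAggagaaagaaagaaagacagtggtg

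The SCN3B peak had 25 reads and 21 A in that stretch. Oligo(dT) primers can anneal to genomic A runs inside a transcript, so such peaks need not mark a poly(A) tail. The part of such priming in this peak was not tested.

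The list as a whole held 200023 peaks with 3 to 200 reads at the summit and a median of 11. All 14 markers of noradrenergic neuroblastoma that were checked had a peak at an annotated transcript end. Among them were HAND2 with 71 reads, TH with 23 and DBH with 19. Of 12 markers of other cell types, 5 had such a peak. These were EPCAM with 7 reads, ACTA1 and GFAP with 11, COL1A1 with 15 and MBP with 18. PTPRC, CD3E, PECAM1, COL1A2, MYH6, MYH7 and ALB had none. Of all protein-coding genes shorter than 1 Mb, 63.9% had a transcript-end peak. Peaks below have −log10 q of at least 5, the cutoff of the study, unless stated. A transcript-end peak had its summit at most 200 bp before or 600 bp after any annotated 3′ end of the gene.

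More channel genes had an intronic peak than a transcript-end peak. At least 1 transcript-end peak was found in 65 of 132 channel genes (49.2%, 95% Wilson interval 40.9 to 57.7%), where 63.9% of all protein-coding genes shorter than 1 Mb had one. An intronic peak was found in 80 channel genes (60.6%, 52.1 to 68.5%) against 58.9% of all genes, and a peak of any class in 99 (75%, 67 to 81.6%) against 76.9%. Of the other 33 genes, 24 had no peak in the whole list and 9 had only peaks under the cutoff. Intervals cover counting error only. Of the 45 glutamate and GABA receptor genes, another group of mostly neuronal membrane proteins, 64.4% (49.8 to 76.8%) had a transcript-end peak and 66.7% an intronic one.

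The 1107 peaks of channel genes lay mostly in introns. Introns held 888 of them (80.2%, 77.8 to 82.5%), transcript ends 123 (11.1%), exons 59 (5.33%) and the stretch from 600 bp to 4 kb past an end 37 (3.34%). In other genes introns held 63.6%, transcript ends 19.7%, exons 11% and the stretch past the end 5.65%, and in the receptor genes introns held 78.7%. Intronic peaks were low, with a median of 11 reads in channel genes and 12 in other genes. At transcript ends the median was 15 reads in channel genes and 20 in others. Only 34 intronic peaks had −log10 q of at least 20, and at that cutoff the intronic share was 44.2%.

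Strand is not in the list, so a peak can belong to any gene that covers it. Here a peak said to lie in or inside another gene lies in its body or up to 4 kb past its 3′ end. These cases are not told apart. Of the 123 transcript-end peaks, 50 (40.7%) also lay in or up to 4 kb past another gene, as did 177 of the 888 intronic peaks (19.9%). In other genes the shares were 43.2% and 28.2%. Without such summits, 37 channel genes (28%, 21.1 to 36.2%) rather than 65 had a transcript-end peak, where 37.6% of all protein-coding genes shorter than 1 Mb had one.

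**Figure D1:**
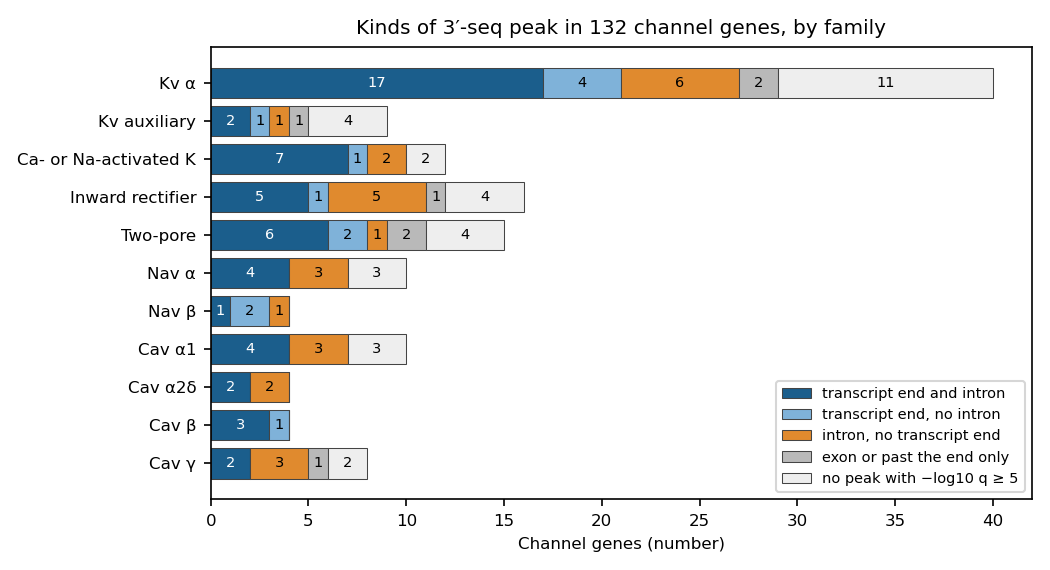
Number of channel genes (x axis) in each of 11 families (y axis), by the kinds of peak they held in the pooled list of 6 libraries. Dark blue stands for genes with transcript-end and intronic peaks (53 in all), light blue for transcript end without intron (12), orange for intron without transcript end (27), grey for exon or past the end only (7) and white for no peak with −log10 q of at least 5 (33).

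Pore-forming subunits of voltage-gated potassium channels were the largest family. Of 40 genes, 21 had a transcript-end peak, 23 had an intronic one, and 11 had no peak, as the plot of families shows. The tallest transcript-end peaks of this family ran from 8 to 39 reads with a median of 17. KCNA1, KCNA2, KCNA4, KCNA6, KCNA7 and KCNA10, members of the Shaker group of fast potassium channels, had no peak. KCNA3, a channel of T cells and neurons, had a transcript-end peak of 10 reads, and KCNA5 had 1 peak past its end with 18 reads.

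The KCNQ genes encode the M-current channels that dampen repetitive firing, and KCNQ1 the slow repolarizing current of the heart. KCNQ5 had 7 transcript-end peaks, the tallest of 39 reads, and 115 intronic peaks, the highest number of the group. KCNQ3 had a transcript-end peak of 21 reads and 16 intronic peaks, the tallest of 26 reads 2.55 kb from the start of the gene. KCNQ1 had no transcript-end peak, and all 13 of its intronic peaks, up to 26 reads, lay in KCNQ1OT1, the antisense noncoding RNA of this imprinted locus. The M-current genes KCNQ3 and KCNQ5 thus had ends in the list, and KCNQ1 had no peak that lay in it alone.

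Among the ether-a-go-go genes, KCNH2 encodes hERG, the rapid repolarizing channel of the heart, and had a transcript-end peak of 35 reads with 3 intronic peaks of up to 15 reads. KCNH7 and KCNH1 showed the opposite arrangement. KCNH7 had 56 intronic peaks of up to 20 reads and 1 transcript-end peak of 10 reads, which also lay in GCA. KCNH1 had 38 intronic peaks of up to 25 reads and transcript-end peaks of up to 15. The tallest of each kind lay in another gene as well, and intronic peaks in no other gene had up to 21 reads. KCNH5 and KCNH8, genes of 403 and 387 kb, had 3 and 16 intronic peaks.

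KCNB2 encodes a delayed rectifier of neuronal cell bodies. It had a transcript-end peak of 27 reads and 73 intronic peaks, the tallest of 47 reads only 1.86 kb from the gene start. That peak was the tallest intronic peak of any channel gene. The silent subunits KCNG1 and KCNG3, which join delayed rectifier subunits, had transcript-end peaks of 39 and 8 reads, each of them inside another gene, and tallest intronic peaks of 31 and 27 reads. KCND2, which carries the A-type current of dendrites, had no transcript-end peak and 8 intronic peaks of up to 13 reads across 477 kb. KCND3, of the same group, had 4 peaks past its end, all of them in DDX20.

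Auxiliary potassium channel subunits had few peaks. Of 9 genes, 3 had a transcript-end peak, and these were the cytoplasmic beta subunits: KCNAB3 with 29 reads, KCNAB1 with 25 and KCNAB2 with 14. All 3 of these peaks also lay in another gene, but KCNAB2 had a further transcript-end peak, of 13 reads, in no other gene. The tallest peak assigned to KCNAB1, 63 reads past its end, lay in SSR3 as well. Of the small membrane subunits, KCNE1, KCNE3, KCNE4 and KCNE5 had no peak, and KCNE2 had 1 past its end that lay in another gene.

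Of the 12 genes for potassium channels opened by calcium or sodium and their subunits, 8 had a transcript-end peak and 9 an intronic one. KCNMA1, the large-conductance BK channel, had 6 transcript-end peaks of up to 34 reads and only 7 intronic peaks in 769 kb. KCNT2, a sodium-activated channel, had 50 intronic peaks of up to 32 reads and 1 transcript-end peak of 12 reads. KCNN2 and KCNN3, small-conductance SK channels, had 10 and 4 intronic peaks, and of these 2 genes only KCNN2 had a transcript-end peak, of 9 reads and inside another gene. KCNMB4, the neuronal BK beta subunit, had a transcript-end peak of 27 reads that lay in no other gene and not at the canonical end. KCNMB1, the smooth muscle beta subunit, and KCNU1, a sperm channel, had none.

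Inwardly rectifying channels set the resting potential. Of 16 genes, 6 had a transcript-end peak and 10 an intronic one, and 15 of the 23 intronic peaks lay in another gene. KCNJ11, the pore of the ATP-sensitive channel of beta cells, had a transcript-end peak of 21 reads and 3 intronic peaks of up to 25, all inside other genes. KCNJ8, its vascular relative, had a transcript-end peak of 16 reads that also lay in another gene, and the 37-read intronic peak printed above, which is a difference of 21 reads, the widest of the group. KCNJ10, the main glial channel, had no transcript-end peak, and 5 of its 6 intronic peaks lay in PIGM. KCNJ12 had 3 transcript-end peaks of up to 21 reads, none of them in another gene.

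Two-pore-domain channels carry the leak current. Of 15 genes, 8 had a transcript-end peak, of 7 to 23 reads. KCNK2 and KCNK1 had 23 and 16 reads there, in neither at the canonical end. KCNK3, an acid-sensitive leak channel, had a transcript-end peak of 14 reads and 3 intronic peaks of up to 15.

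Of the 10 sodium channel alpha subunits, 4 had a transcript-end peak. SCN8A, a channel of nodes and axon initial segments, had 27 reads at its end, where the gene TMDD1 also lies, and 26 intronic peaks of up to 22 reads. SCN3A, the fetal brain channel, and SCN9A, a channel of nociceptors and sympathetic neurons, had 12 and 11 reads, the latter not at the canonical end. Each had 9 intronic peaks, and all transcript-end and intronic peaks of both genes lay inside antisense genes. SCN2A, the channel of excitatory neurons, had no transcript-end peak and 6 intronic peaks, the tallest of 27 reads and shared with SCN3A. SCN1A, the channel of inhibitory neurons, and SCN4A and SCN10A, of muscle and of sensory neurons, had no peak.

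Among the sodium channel beta subunits, SCN3B had a transcript-end peak of 28 reads, which also lay in GRAMD1B, and SCN2B one of 7. SCN4B had 1 intronic peak of 7 reads.

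Calcium channel alpha1 subunits ranged from 58 peaks of any class in CACNA1C to none in CACNA1E, CACNA1F and CACNA1S. CACNA1B, the N-type channel of presynaptic terminals, had 34 intronic peaks and a transcript-end peak of 26 reads in no other gene. The intronic peaks had up to 28 reads, at a site inside another gene, and up to 23 reads elsewhere. CACNA1C, the cardiac L-type channel, had 51 intronic peaks of up to 33 reads and transcript-end peaks of up to 29 reads. Of the intronic peaks, 19 lay in another gene, the 33-read peak among them, and the others had up to 21 reads. The 29-read peak lay also in ITFG2-AS1, and so did the peak of 14 reads at the canonical end of CACNA1C. Only 2 of its 7 transcript-end peaks, of 8 reads each and both in introns of the canonical transcript, lay in no other gene. CACNA1D, an L-type channel of neurons and endocrine cells, had 10 intronic peaks, 7 of them inside DCP1A. Its 12-read transcript-end peak lay in CHDH and not at the canonical end. CACNA1A, the P/Q-type channel, had no transcript-end peak and 2 intronic peaks of up to 8 reads in 427 kb, and CACNA1E, the R-type channel, had no peak in 496 kb. Of the T-type channels, CACNA1H had 21 reads at its end, inside TPSG1, and CACNA1G had 1 intronic peak of 11 reads.

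Among the auxiliary calcium channel subunits, CACNA2D1 and CACNA2D2 encode alpha2delta proteins, of which the first is a target of gabapentin. CACNA2D1 had 98 intronic peaks, 93 of them in no other gene, and a transcript-end peak of 26 reads. CACNA2D2 had the tallest transcript-end peak of the group, 40 reads, and 7 intronic peaks of up to 23 reads. Both the 40-read and the 23-read peak lay inside an overlapping noncoding gene. CACNA2D3, the longest member at 952 kb, had 1 intronic peak of 10 reads. All 4 beta subunits, which carry the pore to the membrane, had a transcript-end peak, of 16 to 21 reads, but in each the tallest of these also lay in another gene. CACNB3 had 17 reads at its canonical end, inside DDX23, and no intronic peak. CACNB2 had 17 reads and 41 intronic peaks, and CACNB4 had 21 reads and 10 intronic peaks. None of the transcript-end peaks of CACNB1, CACNB2 and CACNB4 lay at the canonical end, and those of CACNB4 lay at short transcripts that end in intron 2 and intron 9. Of the 8 gamma genes, CACNG2, CACNG3, CACNG4, CACNG5, CACNG7 and CACNG8 are mostly AMPA receptor partners. CACNG4 and CACNG7 had transcript-end peaks of 20 and 13 reads, and CACNG2 had 8 intronic peaks of up to 11 reads and no transcript-end peak.

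Intronic peaks were concentrated in few genes. KCNQ5, CACNA2D1 and KCNB2 together held 286 of the 888 (32.2%), and the 10 genes with the most held 582 (65.5%). Channel genes were long, with a median of 63.6 kb against 27.3 kb for other genes, and longer genes held more intronic peaks. Among genes of 300 kb to 1 Mb with a transcript-end peak, the median was 27 intronic peaks in 16 channel genes and 25 in 528 other genes. From 100 to 300 kb it was 8 in 14 channel genes and 13 in 2121 others, from 30 to 100 kb 3 against 5, and from 10 to 30 kb 1 against 2. A transcript-end peak was found in 26.3% of channel genes and 45% of other genes under 10 kb, 42.4% and 65.2% from 10 to 30 kb, 64% and 72.8% from 30 to 100 kb, 43.8% and 75.5% from 100 to 300 kb, and 69.6% and 72.1% from 300 kb to 1 Mb.

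**Figure D2:**
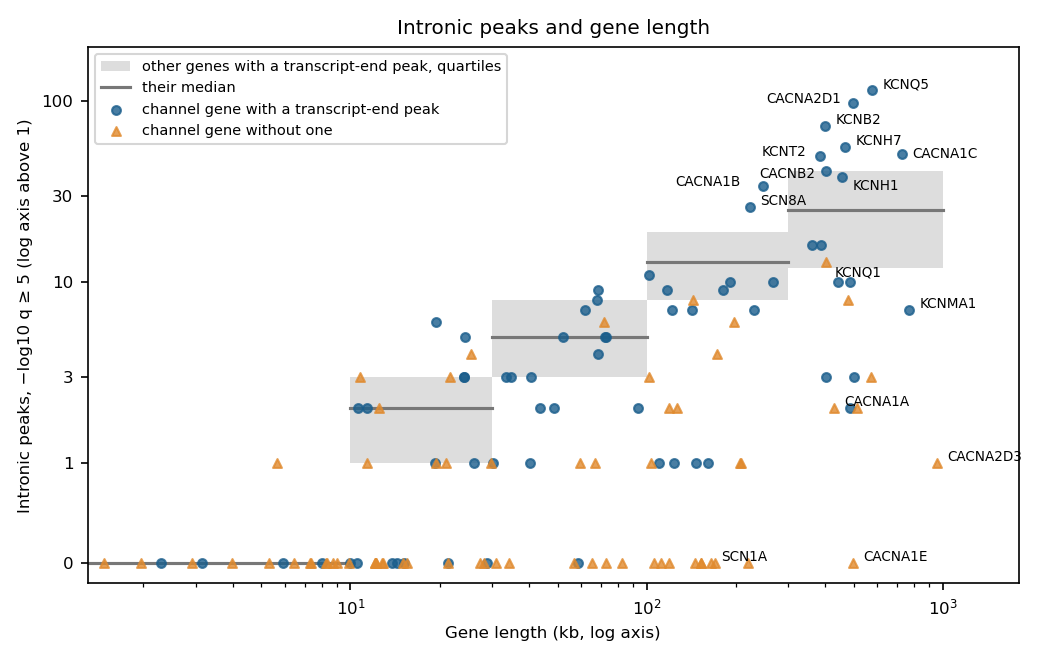
Intronic peaks with −log10 q of at least 5 (y axis, logarithmic above 1) against gene length in kb (logarithmic x axis) for the 132 channel genes, with a transcript-end peak (blue circles) or without (orange triangles). Grey bands show the quartiles and grey lines the medians of other genes with a transcript-end peak in each length range. KCNQ5 at 115 and CACNA2D1 at 98 lie above the median of 25 for other genes of 300 kb to 1 Mb with a transcript-end peak. CACNA1E at 0 and CACNA2D3 at 1 lie at the bottom. Both lack a transcript-end peak, and other genes of that length without one have a median of 1.

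Length did not order the long channel genes among themselves. Of 23 members of 300 kb to 1 Mb, KCNQ5 had 20.3 peaks per 100 kb of intron, CACNA2D1 20.1, KCNB2 18.4, KCNT2 13.3 and KCNH7 12.1. Only 5 of all 755 genes in that length range had more intronic peaks than KCNQ5, and 11 had more than CACNA2D1. KCNMA1 had 0.96 peaks per 100 kb of intron, CACNA1A 0.522, CACNA2D3 0.106 and CACNA1E 0. KCNMA1 had a transcript-end peak of 34 reads and the other 3 had none. In bulk RNA, fewer cells that use a gene and less RNA per cell cannot be told apart.

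Genes without a transcript-end peak had few intronic peaks. The 27 channel genes with an intronic but no transcript-end peak held 82 intronic peaks, 40.2% of them in another gene. In 6 of these genes all intronic peaks lay in another gene, a count that was not made for other genes. The 53 with both kinds held 806, of which 17.9% lay in another gene. In other genes those shares were 60.7% and 25.2%.

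Where both kinds of peak were present, either could be the taller. The tallest intronic peak exceeded the tallest transcript-end peak in 25 of 53 channel genes and equalled it in 2, where 34.9% of the 9934 protein-coding genes with both kinds had the taller peak in an intron. Tallest transcript-end peaks of the 65 channel genes ran from 7 to 40 reads with a median of 16 (quartiles 11 and 26), and those of 12681 other genes from 7 to 123 with a median of 25. The excess was 20 reads in KCNB2 and in KCNT2, 19 in KCNG3, 16 in CACNA2D1 and 10 in KCNH7 and KCNH1. In KCNG3, KCNH7 and KCNH1 the tallest transcript-end peak also lay in another gene, and in KCNH1 so did the tallest intronic peak. The transcript end was taller by 20 reads in KCNH2, where it was the canonical end. It was taller by 18 in KCNMA1, but at an early end in intron 1, and the canonical end had 17 reads against 16 at the tallest intronic peak. In CACNA2D2 it was taller by 17, at a site inside another gene and not at the canonical end.

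**Figure D3:**
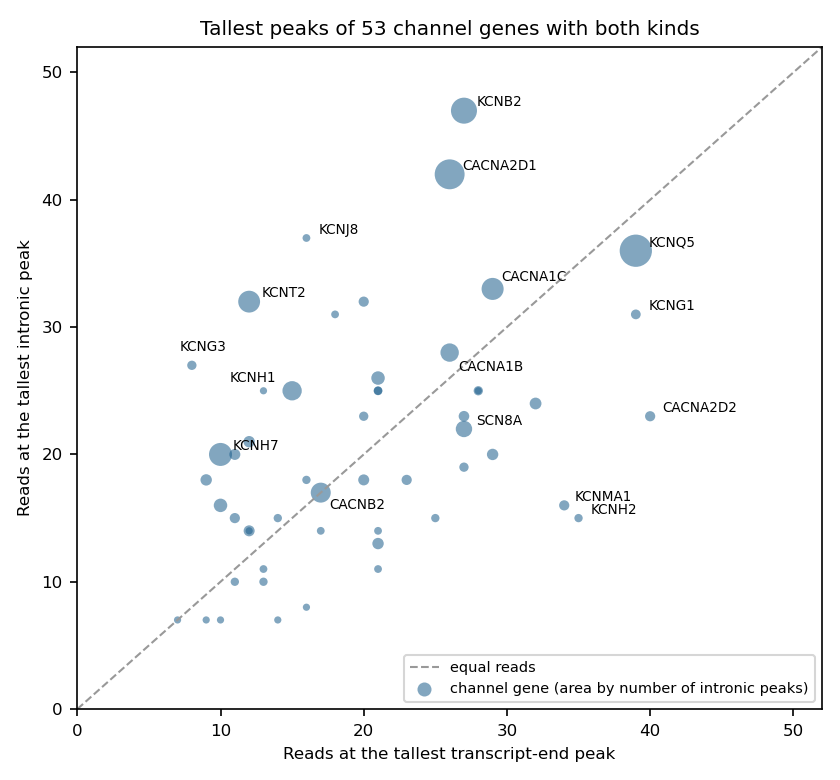
Reads at the tallest intronic peak (y axis) against reads at the tallest transcript-end peak (x axis) for the 53 channel genes with both, pooled over 6 libraries, with the area of a point growing with the number of intronic peaks. Above the dashed line of equal reads lie 25 genes, among them KCNB2, CACNA2D1 and KCNT2, and KCNH2, KCNMA1 and CACNA2D2 lie farthest below it.

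Intronic peaks were spread along the whole gene. Their median position was 43.1% of gene length in channel genes and 41.8% in others, and the first 10% of the gene held 14.3% and 15.3% of them. Of 844 peaks in a numbered intron of the canonical transcript, 255 (30.2%, 27.2 to 33.4%) lay in the first, which holds 30.1% of the intronic bases of these genes. In other genes the first intron held 31.4% of peaks with 26.4% of bases. In distance the channel peaks lay farther in, at a median of 145 kb from the gene start against 42.2 kb. A median of 21.2% of the coding sequence of the canonical transcript lay before an intronic peak.

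Single introns held many of them. Of the 115 KCNQ5 peaks, 79 lay in its first intron of 381 kb, which makes up 66.8% of its intronic bases. In KCNB2, 69 of 73 lay in intron 2 (368 kb), in KCNH7 40 of 56 in intron 2 (299 kb), in CACNB2 28 of 41 in intron 2 (251 kb) and in CACNA2D1 36 of 98 in intron 3 (165 kb). In CACNA1B no intron held more than 6 of 34, and in SCN8A none held more than 7 of 26. The median gap between neighbouring intronic peaks was 3.05 kb in CACNA2D1, 3.97 kb in KCNQ5, 4.03 kb in KCNB2 and 13.8 kb in KCNQ3.

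**Figure D4:**
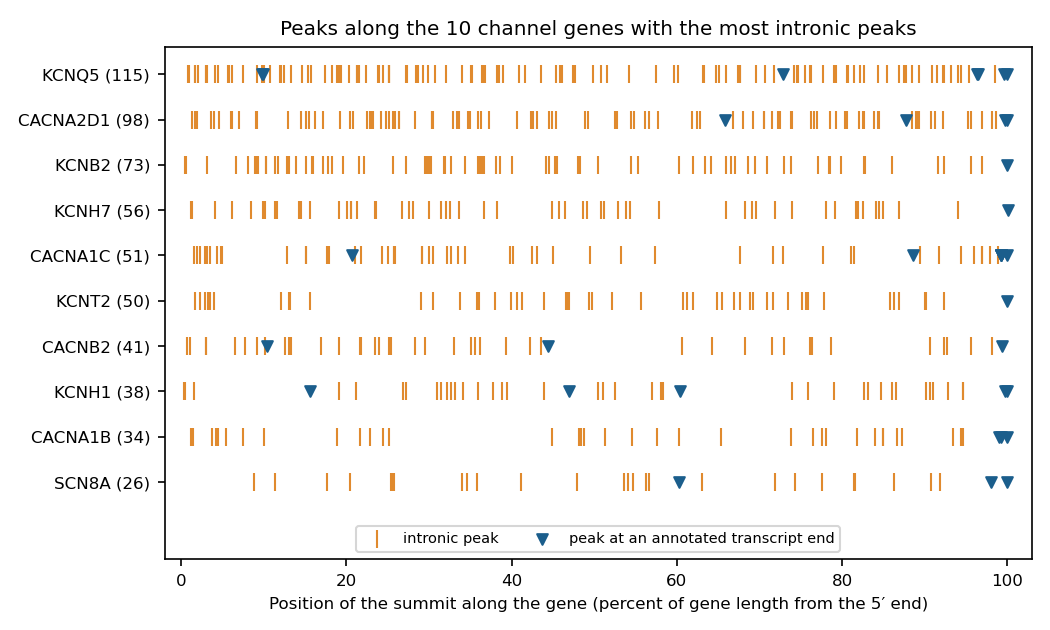
Summits of intronic peaks (orange ticks) and of peaks at annotated transcript ends (blue triangles) along the 10 channel genes with the most intronic peaks (y axis, number in brackets), by percent of gene length from the 5′ end (x axis). Peaks run from 0.758 to 98.5% of gene length in KCNQ5, and KCNQ5, CACNA1C, CACNB2, KCNH1 and SCN8A have annotated ends well before the 3′ end.

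Several of the transcript ends with peaks were early ends. Of the 123 transcript-end peaks, 53 (43.1%) lay at the end of the canonical transcript and 32 (26%, 19.1 to 34.4%) in one of its introns, where other genes had 44.6% and 22.6%. Such an internal end was found in 18 of the 65 genes (27.7%), against 29.6% of other genes with a transcript-end peak. In KCNMA1, the 34-read peak at 2.11 kb and a 16-read peak at 4.23 kb both lay in intron 1, after 10.2% of the coding sequence, and the canonical end had 17 reads. In KCNH2 an end in intron 9 had 28 reads, after 69% of the coding sequence, beside 35 at the canonical end. A shortened hERG isoform that ends in this intron is known. KCNC1, a fast-firing potassium channel, had 20 reads at an end in intron 2 and no peak at its canonical end.

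Peaks past the annotated ends mostly lay in a neighbour. Of 37 such peaks in 25 channel genes, 9 in 8 genes (6.06% of the 132) lay in no other gene, as did those of 6.15% of other genes. They included peaks of KCNH2 with 12 reads and of CACNG4 with 11. The tall ones did not: the 63 reads past KCNAB1, the 56 past KCNG2 and the 45 past CACNA1H all lay in other genes as well.

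Of the 888 intronic peaks, 60.1% (56.9 to 63.3%) had at least 1 of the 12 hexamers that the study lists as poly(A) signals in the 100 bp before the 3′ edge, and 37.6% (34.5 to 40.8%) had one before the opposite edge on the other strand. In other genes these shares were 57.1% and 38.2%. At transcript ends the shares were 80.5% (72.6 to 86.5%) and 52% (43.3 to 60.7%). At both kinds of site the share was higher on the strand of the gene. AATAAA alone was found at 26.9% of intronic peaks and 52.8% of transcript-end peaks. It began 10 to 35 bp before the edge at 16.2% of intronic peaks (17% in other genes) and at 39% of transcript-end peaks (36.7%).

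At least 18 A in 25 bases followed 30.7% (27.8 to 33.9%) of intronic peaks of channel genes on the strand of the gene and 3.38% (2.38 to 4.78%) on the other strand, and 26.4% and 3.03% in other genes. It followed 5.69% (2.78 to 11.3%) of transcript-end peaks. The stretch of at least 22 A that the study used followed 6.64% of intronic peaks, and 5.18% had that stretch and no hexamer, where other genes had 5.43% and 4.46%. Per its methods the study removed peaks with that stretch and no hexamer, and the 888 intronic peaks here still include 46 of them. By gene, at least 18 A followed 31 of 115 intronic peaks of KCNQ5, 27 of 98 of CACNA2D1, 21 of 73 of KCNB2 and 19 of 41 of CACNB2. Of intronic peaks with at least 20 reads, 62.5% had a hexamer and 19.8% had 18 A or more, against 61.4% and 12.3% in other genes. The part of priming on A-rich sequence in the counts was not tested.

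**Figure D5:**
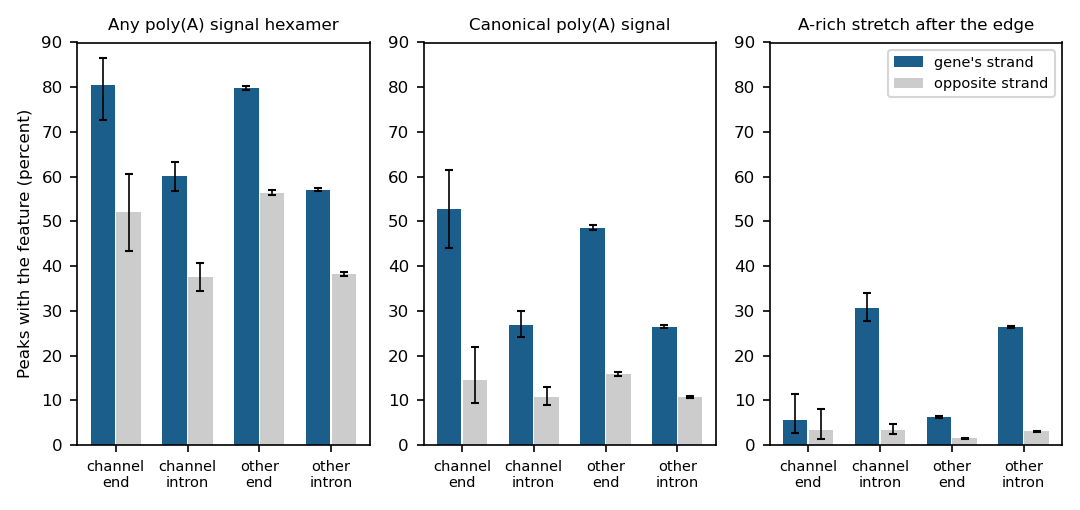
Percent of peaks (y axis) of channel genes and of other genes at transcript ends and in introns that had any of 12 poly(A) signal hexamers (left) or the canonical AATAAA (middle) in the 100 bp before the edge, or at least 18 A in 25 bases after it (right), on the strand of the gene (blue) and on the opposite strand (grey). Bars start at 0 and error bars are 95% Wilson intervals; for intronic peaks of channel genes the blue bars stand at 60.1%, 26.9% and 30.7% and the grey ones at 37.6%, 10.8% and 3.38%.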

How the data were processed

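Poly(A) 3′-seq was measured in 6 IMR-32 libraries. Per the study's methods and the submitters' processing notes, the authors mapped reads to GRCh38 with STAR 2.5.1b, keeping up to 20 placements, merged all samples and called peaks with MACS2 2.1.1, extending reads to 100 bp, without a control library. The deposited list gives each peak's fold enrichment (a ratio, pileup plus 1 over local background plus 1), its −log10 p, its −log10 q score and the summit. A further column holding the q score in another scale was not used. Depth per library is unknown. The authors' fold and −log10 p were solved here for the pileup, called reads. It was recovered at 100% of 20000 simulated peaks, and the largest misfit was 0.000172. The highest pileup was 200 reads, which is also the most that 1 kept read per position on 2 strands allows with 100 bp reads. If the peak caller dropped duplicates, which the methods do not state, tall peaks are understated.

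Genes and ends came from GENCODE 44 (the study used an earlier release), and ends that GENCODE marks as not found were not used. Summits were classed in the order transcript end, exon, intron, past the end. Hexamers were searched in the 100 bp ending at the 3′ edge, and A stretches in the 50 bp after it. The other-strand value used the other edge of the same peak. Motifs of the same search may overlap. Shares have 95% Wilson intervals (scipy 1.17.1, Python 3.11.15), and classes were checked on a made-up gene with known classes. Sequence came from GRCh38.

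The symbol rule for members used no measured value, but it and the gene lists were chosen with earlier results of these data known. Genes were named by rule: the 10 with the tallest transcript-end peak, the 10 with the most intronic peaks, the 5 without a transcript-end peak with the most intronic peaks, the 5 whose intronic peak exceeded the transcript-end peak most, and a list of textbook channels. Some genes and sequences that the rule names are not reported here. Other genes were added as examples of their family after their values were seen, and so was the account of internal ends. Alternatives changed the q cutoff, the end window, the transcripts, the hexamers and the A minimum, merged close peaks or dropped summits in other genes.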

Additional observations from a re-analysis of the deposited data

How the results depend on the processing

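Of 31 alternative values, 19 stayed within the limits set (1.5 times for a count, the 95% interval for a share) and 12 moved. A stricter cutoff, fewer hexamers and dropped summits leave fewer peaks by construction, and beyond that the cause was not tested. With −log10 q of at least 20, 20 channel genes had a transcript-end peak and 17 an intronic one, 34 intronic peaks remained, the intronic share was 44.2% and the first-intron share 36.4%. With no cutoff there were 1378 intronic peaks and an intronic share of 82.5%. The intronic share was 84.5% with the canonical transcript only and 86.1% without summits in another gene, where 37 genes had a transcript-end peak. AATAAA alone lowered the hexamer share to 26.9%, and 18 A rather than 22 raised the A-stretch share to 30.7%. No paired analysis was possible because reads were merged before peaks were called, and for the same reason no replicate could be left out. The pooled list limits what these values show: they do not say in which treatment a peak arose, heights carry no replicate error, a peak in 2 genes cannot be assigned without strand, and a gene without a peak may still be transcribed under the depth of the list.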

Other observations

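Genes for partners of these channels also had transcript ends in the list. Of 28 listed partners, 4 could not be used, 3 of them because they are 1 Mb or longer, and 20 of the other 24 had a transcript-end peak, where 63.9% of all protein-coding genes shorter than 1 Mb had one. The list was picked by hand. Whether peaks of these partners, the pacemaker and leak channel genes below among them, also lay in another gene was not checked. Of peaks in all genes other than channel genes, 43.2% at transcript ends and 28.2% in introns did. The intracellular fibroblast growth factor FGF14, which binds sodium channels, had 81 intronic peaks and a transcript-end peak of 14 reads, and its relatives FGF12 and FGF13 had 17 and 26 intronic peaks with 14 and 7 reads at the end. ANK2 and ANK3, the ankyrins that hold sodium channels at the axon initial segment and elsewhere, had 52 and 47 intronic peaks, with 24 and 15 reads at the end. RIMBP2, which ties calcium channels to release sites, had 40 intronic peaks and 22 reads, and STAC, an adaptor of L-type channels, had 30 intronic peaks and 28 reads.

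Among pacemaker channel genes, HCN2, HCN3 and HCN4 had transcript-end peaks of 27, 11 and 11 reads. The sodium leak channel NALCN had 1 intronic peak in 363 kb and 7 reads at its end, whereas its subunits UNC79 and UNC80 had 32 and 15 intronic peaks with 23 and 9 reads. KCNIP1, a subunit of the A-type channels, had no transcript-end peak and 3 intronic peaks in 383 kb.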
